A study of Mus musculus with 32 samples.

Results

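The hypoxia and glycolysis genes described here are 10 genes, Bnip3, Slc16a3, Pdk1, Ldha, Slc2a1, Pgk1, Egln3, Ndrg1, Vegfa and Hk2, of 17440 genes listed in any of 5 deposited tables of normalised counts from E14 mouse embryonic stem cells. They were chosen by name for this group, with their values in cells overexpressing mutated or wild-type CTCF in view. The levels of those libraries are therefore given as a description with no test. All 10 were listed in every table, as were 12805 genes in all, and all 10 passed the filter of a mean of at least 10 normalised counts in every table.

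RNA sequencing was done on 32 libraries in 16 groups of 2. E14 is an established embryonic stem cell line. All libraries of 4 tables carry the genotype CTCF AID, in which an auxin-inducible degron on CTCF, the zinc finger protein at the base of many chromatin loops, lets indole-3-acetic acid (IAA) trigger its destruction. Those of the fifth table are RAD21 AID cells, in which the cohesin subunit RAD21 bears the degron. The CTCF degradation table holds CTCF AID cells at 0, 12 and 24 h of 500 uM IAA. The RAD21 table holds RAD21 AID cells at 0, 12 and 24 h, and the treatment protocol names 1 uM 5-Ph-IAA for these cells where the treatment label of each library says IAA. A serum table holds CTCF AID cells labelled as in serum, at 0 and 12 h of IAA, although the growth protocol of every library describes a serum-free medium with leukemia inhibitory factor, PD0325901 and CHIR99021. A hairpin table holds CTCF AID cells with a control hairpin (named for luciferase in the column names) or a hairpin against Chd4, an ATPase of the NuRD chromatin-remodelling complex. The overexpression table holds CTCF AID cells with an overexpression control, wild-type CTCF or mutated CTCF, each without IAA or with 12 h of IAA. The labels name neither the mutation nor the promoter of the overexpressed CTCF. They do not say whether a line is a single clone or whether the 2 libraries of a group came from separate cultures, so p-values measure the spread between these libraries, which may be technical.

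Titles and treatment labels contradict each other in 4 overexpression libraries. By its label, the pair titled mutated CTCF without IAA had 12 h of IAA, and by its label the pair titled wild-type CTCF with IAA had none. Groups follow the titles here. Cyp1a1, an aryl hydrocarbon receptor target, read 833 to 1553 normalised counts in the 6 overexpression libraries titled with IAA and 94.8 to 142 in the 6 titled without, so its level followed the titles in all 12.

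Cells sense oxygen through the hypoxia-inducible factors (HIF). Prolyl hydroxylases such as EGLN1 and EGLN3 mark the HIF alpha subunits for destruction through VHL when oxygen is present, and in low oxygen the alpha subunit pairs with ARNT and binds DNA at a short core motif. Its targets include glucose transporters, glycolytic enzymes, lactate export, an inhibitor of pyruvate oxidation, mitophagy receptors and the angiogenic ligand VEGFA. Naive embryonic stem cells use both glycolysis and respiration, and lean towards glycolysis as they leave the naive state.

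The sequences before the start sites are shown for 5 of the 10 genes: Bnip3 and Slc16a3 with the largest differences, the glycolytic enzymes Ldha and Pgk1, and the hexokinase gene Hk2, which followed the mean of the other members least of 9 compared. Each is the stretch before the RefSeq start (GRCm38.p6) that holds no annotated exon, 5′ to 3′ on the gene's strand. By the GENCODE positions given below, the stretches of Ldha and Slc16a3 lie inside the gene, downstream of its first annotated start. Capitals mark the letters ACGTG or GCGTG, the core of the HIF-binding motif, on either strand, where CACGTG is a match on both strands at once.
Bnip3 (chr7:138909520-138909756, minus strand): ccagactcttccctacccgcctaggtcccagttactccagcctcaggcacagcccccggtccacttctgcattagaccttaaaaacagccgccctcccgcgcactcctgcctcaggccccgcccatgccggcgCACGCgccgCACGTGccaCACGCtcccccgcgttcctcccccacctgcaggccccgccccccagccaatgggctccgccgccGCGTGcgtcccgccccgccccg
Slc16a3 (chr11:120948817-120949052, plus strand): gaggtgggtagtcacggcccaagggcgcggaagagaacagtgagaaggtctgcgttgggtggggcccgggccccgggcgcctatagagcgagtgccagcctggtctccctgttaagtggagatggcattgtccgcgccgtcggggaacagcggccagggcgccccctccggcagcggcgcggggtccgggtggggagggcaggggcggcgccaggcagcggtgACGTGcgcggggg
Ldha (chr7:46845554-46845803, plus strand): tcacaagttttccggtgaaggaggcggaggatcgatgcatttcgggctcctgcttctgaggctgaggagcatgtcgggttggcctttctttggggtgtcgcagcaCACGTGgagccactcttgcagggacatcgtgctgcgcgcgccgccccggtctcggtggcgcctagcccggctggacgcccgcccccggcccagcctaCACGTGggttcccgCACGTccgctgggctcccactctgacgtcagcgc
Pgk1 (chrX:106186850-106187099, plus strand): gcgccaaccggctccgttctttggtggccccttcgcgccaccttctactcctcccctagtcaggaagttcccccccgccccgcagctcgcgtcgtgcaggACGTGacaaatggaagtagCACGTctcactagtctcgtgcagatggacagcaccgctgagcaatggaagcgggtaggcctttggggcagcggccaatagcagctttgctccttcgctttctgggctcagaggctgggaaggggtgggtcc
Hk2 (chr6:82774455-82774704, minus strand): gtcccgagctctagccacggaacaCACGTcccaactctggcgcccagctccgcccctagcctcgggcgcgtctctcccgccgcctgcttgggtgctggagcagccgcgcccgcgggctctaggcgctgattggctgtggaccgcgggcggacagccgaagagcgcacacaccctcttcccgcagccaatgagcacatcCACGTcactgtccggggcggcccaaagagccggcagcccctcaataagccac

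The Bnip3 stretch holds 4 separate matched stretches, Ldha 3, Pgk1 2, Hk2 2 and Slc16a3 1. Windows of 250 bases before the start were held for 9 of the 10 genes, with Ndrg1 the gene without one. ACGTG was found in 7 of the 9 windows (77.8%), against 21.2% of 12229 windows of genes listed in the deposited tables and 16.5% of 27025 windows in all. GCGTG was found in 3 of 9 (33.3%), against 43.7% and 28.3%. Either motif stood in 8 of 9 (88.9%), against 54.6% and 38.6%, and Vegfa was the window with neither. The members' windows were also richer in G and C, with a median of 66.4% against 59.6% for listed genes. A match describes letters and not binding. The genes were chosen by name as hypoxia and glycolysis genes, so these shares carry no test. The part of the motif in the changes below was not tested.

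Annotated positions are those of GENCODE M21 on GRCm38, while the submitters' processing notes name mm10. Slc2a1 (ENSMUSG00000028645.11) lies on chromosome 4, 119108711 to 119137983, plus strand, and Hk2 (ENSMUSG00000000628.10) on chromosome 6, 82725025 to 82774454, minus strand. Pgk1 (ENSMUSG00000062070.12) lies on chromosome X, 106187100 to 106203699, plus strand, and Ldha (ENSMUSG00000063229.15) on chromosome 7, 46841475 to 46855627, plus strand. Slc16a3 (ENSMUSG00000025161.16) lies on chromosome 11, 120948480 to 120960868, plus strand, and Pdk1 (ENSMUSG00000006494.11) on chromosome 2, 71873224 to 71903858, plus strand. Bnip3 (ENSMUSG00000078566.8) lies on chromosome 7, 138890836 to 138909519, minus strand, Ndrg1 (ENSMUSG00000005125.13) on chromosome 15, 66929318 to 66969640, minus strand, and Egln3 (ENSMUSG00000035105.5) on chromosome 12, 54178981 to 54203860, minus strand. Vegfa (ENSMUSG00000023951.18) lies on chromosome 17, 46016993 to 46032369, minus strand, matched without its version number. Exons of Bnip3, Slc2a1 and Ndrg1 overlap antisense or bidirectional genes on the opposite strand by 504, 105 and 419 bases (Gm45507, Gm12868 and Gm17035), and those of Ndrg1 also overlap Gm2895 by 137 bases. Strand use in counting is not given in the sources used here, so their values are uncertain to that extent. Pgk1 and Ldha also have processed pseudogenes in the mouse genome, which can share reads with them.

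Summed over genes, the deposited values of a library came to 15364584 to 19642332. All 8 embryonic stem cell markers were listed in every table, with summed levels of 57280 to 127610 normalised counts, lowest in the serum table. Of the markers of other lineages, the trophoblast gene Elf5 and the mesoderm gene Mesp1 were listed in no table. Chd4 read 9923 and 9526 with the control hairpin and 3379 and 3729 with the Chd4 hairpin. The degron acts on protein, and the Ctcf and Rad21 transcripts do not check it.

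The most uniform tested difference was that of the hairpin against Chd4, where all 10 genes fell, with differences of -0.59 (Hk2) to -4.03 (Bnip3) on the log2(value + 1) scale. Differences were fitted with limma, and one is called where its adjusted p, corrected over every gene tested in the table, is under 0.05. In that comparison 67.4% of 15499 genes were called, 33.8% as lower, so a call alone is common there. The size of the falls was less common. Of the 10 genes, 7 were at least 2-fold lower, against 11.6% of all genes tested, and the median difference was -1.89 for the 10 and 0.0062 for all genes.

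Transcripts of a glucose transporter and of a hexokinase were both lower with the Chd4 hairpin. Slc2a1, the widely expressed glucose transporter GLUT1, read 6108 and 6170 with the control hairpin and 1414 and 1346 with the Chd4 hairpin (log2 difference -2.15, SE 0.05, limma adjusted p 1.32e-06). Hk2, a hexokinase that traps glucose in the cell by phosphorylation, read 7826 and 8163 against 5128 and 5514 (log2 difference -0.59, SE 0.05, limma adjusted p 8.67e-05). Hk2 had the smallest fall of the 10.

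Further down the pathway, Pgk1, the first ATP-forming enzyme of glycolysis, read 17853 and 17820 with the control hairpin and 4082 and 4402 with the Chd4 hairpin, a log2 difference of -2.07. Ldha, which converts pyruvate to lactate, read 14753 and 15149 against 7191 and 7762, a log2 difference of -1.0. Slc16a3, the lactate exporter MCT4, read 1171 and 1099 against 76.9 and 79.3 (log2 difference -3.84, SE 0.10, limma adjusted p 1.88e-06). The 2 groups did not overlap for any of these genes, where 67.4% of all genes were called. The lactate exporter was left at a small part of its control level.

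Pdk1, a kinase that inhibits the oxidation of pyruvate in mitochondria, read 1508 and 1847 with the control hairpin and 1006 and 961 with the Chd4 hairpin (log2 difference -0.76, limma adjusted p 0.00052). Bnip3, a receptor for mitophagy on the outer mitochondrial membrane, read 2051 and 2090 against 123 and 129 (log2 difference -4.03, SE 0.08, limma adjusted p 1.32e-06), the largest fall of the 10. Ndrg1, a stress-responsive cytoplasmic protein, read 1259 and 1327 against 301 and 313 (log2 difference -2.07). Egln3, the HIF-induced prolyl hydroxylase of the feedback loop, read 381 and 423 against 122 and 123 (log2 difference -1.70). Vegfa, the secreted ligand, read 1068 and 1137 against 663 and 640 (log2 difference -0.76). None of these 5 genes had overlapping libraries, in a comparison where 67.4% of all genes were called. The share of all genes without overlap was not counted there.

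The rest of the pathway moved unevenly with the Chd4 hairpin. Of 19 other glycolysis genes tested, 15 fell and 2 rose, with a median difference of -1.03. Aldoc, a brain-type aldolase, went from 713 ± 55.1 (SD, n = 2) to 47.3 ± 4.65 normalised counts, Pfkm, the muscle-type phosphofructokinase, from 1354 ± 26.4 to 139 ± 4.79, and Ldhb from 16704 ± 168 to 3586 ± 360 (limma adjusted p 3.92e-06, 1.87e-06 and 2.46e-06). Of 32 other hypoxia-inducible genes tested, 16 fell and 8 rose, with a median of -0.46. Bhlhe40, a transcriptional repressor, went from 2146 ± 65.8 to 285 ± 49.3, Gys1, a glycogen synthase, from 557 ± 46.0 to 74.5 ± 5.03, and Ero1l, an oxidase of the endoplasmic reticulum, from 4145 ± 0.0402 to 1272 ± 27.4. Of 12 genes for the entry of pyruvate into mitochondria or its oxidation there, 9 fell and 2 rose. Among the falls were the kinases Pdk4 (log2 difference -2.05) and Pdk2 (-1.28) and the dehydrogenase subunit Pdha1 (-0.86). Among 11 HIF pathway regulators, 5 rose and 3 fell. Hif3a went from 549 ± 33.1 to 54.1 ± 7.84 and Arnt, the partner subunit of HIF, from 2667 ± 26.0 to 1276 ± 34.4, while Arnt2 went from 106 ± 6.56 to 231 ± 4.12 (limma adjusted p 7.80e-06, 9.47e-06 and 0.000436). Hif1a, named here after its values were seen, stood at 4017 ± 46.9 and 4831 ± 119, a called rise of 0.27 (limma adjusted p 0.00168). These lists were chosen with results of the data known, and their counts stand beside the 33.8% of all genes called lower and 33.5% called higher.

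Markers moved with the hairpin too. The summed level of the 8 stem cell markers was 123241 to 124942 with the control hairpin and 77461 to 78746 with the Chd4 hairpin. The 6 listed primitive endoderm markers of 7 (Foxa2 was not listed) summed to 102 to 119 and 943 to 965, and the 3 listed mesoderm markers of 4 (Mesp1 was not listed) to 186 to 279 and 452 to 483. Of the 6 primitive endoderm markers, 4 were called higher and 2 lower. Most of their summed level came from Dab2 (mean 1.78 to 616) and Pdgfra (36.25 to 214). The 3 fibroblast markers, all listed, summed to 239 to 316 and 559 to 628, and the 3 neural markers to 122 to 142 and 99.4 to 103. No trophoblast marker was listed in this table. In bulk RNA, fewer cells of a type and less RNA per cell cannot be told apart. The part of these shifts in the falls of the 10 genes was not tested.

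**Figure D1:**
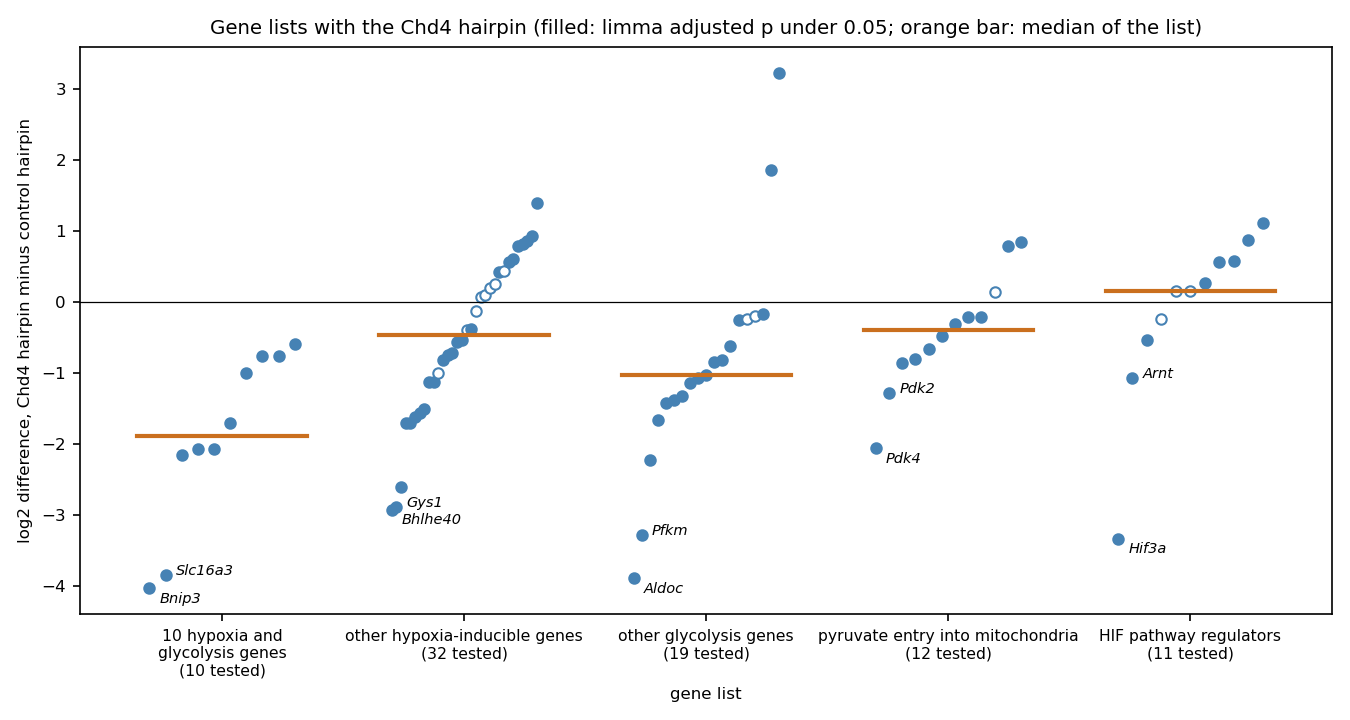
Log2 difference between the Chd4 hairpin and the control hairpin (y axis) of each tested gene in 5 lists (x axis), with a filled point where limma's adjusted p is under 0.05, an orange bar at the list's median and the 2 lowest genes of each list named. All 10 hypoxia and glycolysis genes lie below 0 with a median of -1.89, the other glycolysis genes have a median of -1.03 and the HIF pathway regulators spread to both sides of 0 with a median of 0.16.

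RAD21 degradation gave a different picture at each time. At 12 h, 4 of the 10 genes rose (Slc16a3, Ldha, Pgk1 and Hk2) and 3 fell (Slc2a1, Egln3 and Vegfa), where limma called 13.0% of 13738 genes (6.66% higher, 6.35% lower). At 24 h none rose and 8 fell, where 13.7% of genes were called (6.54% higher, 7.16% lower). From 12 h to 24 h, 8 fell, where 15.9% were called (7.67% higher, 8.26% lower). The comparisons of 12 h and 24 h with 0 h share the 0 h libraries, so their agreement is no separate support. The median difference of the 10 was -0.04 at 12 h, -0.55 at 24 h and -0.51 from 12 h to 24 h, against -0.0006, 0.0007 and 0.0013 for all genes. The stem cell markers summed to 105883 to 107454, 101811 to 101939 and 105253 to 105328 at 0, 12 and 24 h, and the 5 listed primitive endoderm markers of 7 (Foxa2 and Sox7 were not listed) to 111 to 124, 175 to 184 and 155.5 to 175. From 0 h to 24 h the 2 listed mesoderm markers of 4 (Mesp1 and T were not listed) went from 228 to 245 down to 144 to 154, with Eomes called lower, and the 3 neural markers from 188 to 225 down to 120 to 137, with Sox1 called lower. The 2 listed fibroblast markers of 3 (Col1a2 was not listed) stood at 34.6 at 0 h and 66.5 to 111 at 24 h, with 1 called higher, and no trophoblast marker was listed. Their part in the changes below was not tested.

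Slc2a1 read 3903 and 3959 at 0 h of 5-Ph-IAA, 3347 and 3443 at 12 h and 2084 and 2051 at 24 h. The transporter fell at both times, by 0.21 and then 0.93 on the log2 scale (SE 0.04, limma adjusted p 0.0163 and 9.67e-05). Hk2 read 7347 and 7404 at 0 h, 8322 and 8299 at 12 h and 5939 and 6279 at 24 h, a rise of 0.17 at 12 h and a difference of -0.27 at 24 h (limma adjusted p 0.0190 and 0.00357). Both 24 h libraries of Hk2 lay under all 4 earlier ones.

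Pgk1, Ldha and Slc16a3 were highest at 12 h. Pgk1 read 12490.3 and 12374.5 at 0 h, 14805 and 14802 at 12 h and 12523 and 12298 at 24 h, so the 24 h libraries enclosed those of 0 h. Ldha read 14806 and 14678, then 16337 and 16493, then 11850 and 11876, with log2 differences from 0 h of 0.16 and -0.31 (limma adjusted p 0.00452 and 0.000385). Slc16a3 read 1554 and 1624, then 2074 and 2123, then 1140.1 and 997, with differences of 0.40 and -0.57 (limma adjusted p 0.0166 and 0.00443). For the lactate dehydrogenase and the lactate exporter the 3 times did not overlap.

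Bnip3 read 2289 and 2228 at 0 h, 2129 and 2014 at 12 h and 1325 and 1301 at 24 h, with a fall at 24 h (log2 difference -0.78, SE 0.05, limma adjusted p 0.000458) and no call at 12 h (-0.13, limma adjusted p 0.153). Ndrg1 read 952 and 933, then 995 and 958, then 722 and 617, a difference of -0.50 at 24 h (limma adjusted p 0.0145). Pdk1 was not called at either time, with 1466 and 1539, then 1514 and 1259, then 1224 and 899. Its 24 h libraries differed from each other more than those of the other genes, and lay under both 0 h libraries.

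Egln3 and Vegfa fell early. Egln3 read 287 and 307 at 0 h, 201 and 193 at 12 h and 129 and 109 at 24 h, which is -0.59 and -1.32 against 0 h (SE 0.14, limma adjusted p 0.0372 and 0.00211). Vegfa read 1875 and 1920.3, then 1137 and 1248, then 1176 and 1063.0, which is -0.67 and -0.76 (SE 0.07, limma adjusted p 0.00341 and 0.00150). The ligand was not called between 12 h and 24 h (-0.09, limma adjusted p 0.448). The 8 genes that fell over that step had differences from -0.98 for Slc16a3 to -0.25 for Pgk1.

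Several calls at 12 h needed all 4 libraries, and fewer of all genes were called with any 1 left out. Leaving out any 1 of the 4 ended those of Slc16a3 (adjusted p 0.0637 to 0.0931), Slc2a1 (0.0623 to 0.0879), Egln3 (0.109 to 0.154) and Hk2 (0.0792 to 0.0900), and left 3 of the 7. At 24 h the call of Ndrg1 ended without the first or second 0 h library or the second 24 h library (adjusted p 0.0721, 0.0678 and 0.0509). From 12 h to 24 h, that of Egln3 ended without the first or second 12 h library or the second 24 h library (0.0812, 0.0685 and 0.0692), and that of Ndrg1 without the first 12 h library (0.0580). With the replicate block, Egln3 at 12 h had an adjusted p of 0.0586.

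Other genes of the pathway followed the same 2 steps in part. Of 19 other glycolysis genes tested, 8 rose and 1 fell at 12 h (6.66% and 6.35% of all genes). From 12 h to 24 h, 3 rose and 9 fell (7.67% and 8.26% of all genes). Eno1, an enolase, read 17728 ± 200 (SD, n = 2) at 0 h, 21121 ± 162 at 12 h and 14438 ± 79.9 at 24 h, and Pfkl, the liver-type phosphofructokinase, 2535 ± 49.5, 3349 ± 23.2 and 2333 ± 108. Ldhb, the other lactate dehydrogenase subunit, went up from 3203 ± 48.2 to 4690 ± 59.2 between 12 h and 24 h. Of 33 other hypoxia-inducible genes, 2 rose and 13 fell from 12 h to 24 h, led by Bhlhe40 (2244 ± 4.94 to 1190 ± 16.6), Angptl4 (246 ± 56.3 to 136 ± 22.1) and Higd1a (903 ± 66.5 to 522 ± 39.96). Of 11 regulators, none rose and 3 fell over that step, and these were Egln1 (1426 ± 14.5 to 845 ± 68.1), Cited2 (730 ± 95.3 to 472 ± 33.4) and Siah2 (463 ± 15.8 to 343 ± 26.3).

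CTCF degradation split the 10 genes. After 12 h of IAA, 5 fell (Vegfa, Bnip3, Slc2a1, Egln3 and Ldha) and 2 rose (Hk2 and Pgk1), where limma called 17.8% of 13699 genes (9.39% higher, 8.4% lower). After 24 h, 3 fell (Vegfa, Slc2a1 and Ldha) and 4 rose (Hk2, Pgk1, Slc16a3 and Ndrg1), where 22.5% of genes were called (11.7% higher, 10.8% lower). The 12 h and 24 h comparisons share the 0 h libraries. The stem cell markers summed to 96794 to 97064, 94742 to 94959 and 92366 to 93139 at the 3 times. The 3 listed mesoderm markers of 4 (Mesp1 was not listed) summed to 135 to 147, 151 to 189 and 215 to 234, and T rose from a mean of 7.87 to 138 at 24 h (limma adjusted p 0.000258). T was the only 1 of the 3 called at 24 h. Another was lower without overlap, and the median difference of the 3 was -0.16. The 2 listed neural markers of 3 (Pax6 was not listed) summed to 153 to 159, 93.9 to 107 and 97.3 to 119, with Sox1 called lower at 24 h. The 3 listed primitive endoderm markers of 7 summed to 76.1 to 78.4, 68.5 to 94.4 and 85.1 to 93.6. The part of these shifts was not tested. From 12 h to 24 h none of the 10 was called by limma, where only 20 genes (0.146%) were called in all and 1929 had an unadjusted p under 0.05.

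Slc2a1 read 1587 and 1695 at 0 h, 1195 and 1289.5 at 12 h and 1268 and 1303 at 24 h, and fell at both times (log2 differences -0.40 and -0.35, SE 0.07, limma adjusted p 0.00789 and 0.0106). Hk2 read 5079 and 5314, then 7468 and 8227, then 7385 and 7596, and rose at both (0.59 and 0.53, SE 0.05, limma adjusted p 0.000699 and 0.000862). Transporter and hexokinase thus moved in opposite directions, with no overlap between 0 h and the later libraries.

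Pgk1 read 5338 and 5232 at 0 h, 6038 and 5942 at 12 h and 6657 and 6819.9 at 24 h (log2 differences 0.18 and 0.35, limma adjusted p 0.0163 and 0.000953). Ldha read 7276 and 7351, then 5973 and 5948, then 6663 and 6804 (-0.30 and -0.12, limma adjusted p 0.00188 and 0.0459). Slc16a3 read 261 and 305, then 184 and 224, then 393 and 452 (-0.48 and 0.58, limma adjusted p 0.0702 and 0.0327), so the lactate exporter was lowest at 12 h and highest at 24 h, with no overlap between the times. Bnip3 likewise had its low point at 12 h, at 351 and 382 against 554 and 588 at 0 h and 556 and 550.1 at 24 h, and was called at 12 h only (-0.64, limma adjusted p 0.00410).

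Egln3 read 133 and 142 at 0 h, 59.6 and 77.2 at 12 h and 84.5 and 103 at 24 h (log2 differences -1.01 and -0.55, SE 0.21, limma adjusted p 0.0179 and 0.103). Vegfa read 1299.5 and 1198, then 726 and 708, then 596 and 689 (-0.80 and -0.96, SE 0.09, limma adjusted p 0.00178 and 0.000623). Vegfa was thus called lower at both times in this table, as in the RAD21 table. Ndrg1 read 319 and 298, then 326 and 314, then 413 and 389, and rose at 24 h (0.38, limma adjusted p 0.0370). Pdk1 was called at neither time, with 457 and 418, then 401 and 358, then 491 and 457.

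Several of these calls ended when a library was left out, with differences of the same sign, and fewer of all genes were called in those fits. At 12 h the call of Slc2a1 ended without the second 0 h library (adjusted p 0.0586) or the first 12 h library (0.0579), that of Egln3 without the first or second 0 h library or the first 12 h library (0.0801, 0.104 and 0.0953) and that of Pgk1 without any 1 of the 4 (0.0701 to 0.103). This left 4 calls of 7 without the second 0 h or the first 12 h library, 5 without the first 0 h library and 6 without the second 12 h library. Pgk1 at 12 h was also not called after quantile normalisation (0.118). At 24 h the calls of Slc16a3, Ldha and Ndrg1 ended without any 1 of the 4 libraries (0.055 to 0.189), and that of Slc2a1 without the second 0 h library (0.0729), which left 3 calls without that library and 4 without each of the others. With only the 0 h and 24 h groups in the fit, Ldha (0.0829) and Ndrg1 (0.0604) were not called and 5 calls were left. The calls of Vegfa and Hk2 at both times held in every fit with a library left out.

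Among the HIF pathway regulators, none of 11 rose and 5 fell at 12 h (9.39% and 8.4% of all genes). Siah2, a ubiquitin ligase that acts on prolyl hydroxylases, went from 387 ± 57.4 (SD, n = 2) to 202 ± 6.48, Arnt2 from 107 ± 2.60 to 66.3 ± 1.62 and Epas1, the HIF-2 alpha subunit, from 402 ± 50.2 to 254 ± 36.0 (limma adjusted p 0.00495, 0.0404 and 0.0211). Hif1a read 3494 ± 90.3 at 0 h and 3492 ± 139 at 12 h. Other glycolysis genes went both ways, with 4 of 18 higher and 3 lower at 12 h and 8 higher and 1 lower at 24 h (at 24 h 11.7% and 10.8% of all genes). Hk1, the ubiquitous hexokinase, rose from 3753 ± 9.67 to 4913 ± 82.3 and 5579 ± 251, and Ldhb stood at 5869 ± 37.7 at 0 h and 8649 ± 108 at 24 h. Of 31 other hypoxia-inducible genes, 2 rose and 7 fell at 12 h and 4 rose and 2 fell at 24 h. Gys1 rose from 1235 ± 81.7 to 2272 ± 6.77 and 2061 ± 61.8, and Bhlhe40 fell from 718 ± 0.358 to 490 ± 15.8 at 12 h.

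Compared with the serum-free CTCF degradation table, the same 12 h of IAA gave other calls in the serum table. There, 4 of the 10 genes rose (Bnip3, Slc16a3, Pgk1 and Hk2) and none fell, where limma called 17.0% of 14494 genes (7.73% higher, 9.25% lower). Bnip3 read 1635 and 1652 at 0 h and 2103 and 2075 at 12 h (log2 difference 0.35, SE 0.04, limma adjusted p 0.00165), and Slc16a3 983 and 989.8 against 1358 and 1309 (0.43, limma adjusted p 0.00170). Pgk1 read 11803 and 12017 against 13472 and 13543 (0.18), and Hk2 6692 and 6849.8 against 7603 and 7619.5 (0.17). In each of these 4 genes both 12 h libraries lay above both 0 h libraries.

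The other 6 genes were not called in serum. Slc2a1 read 6033 and 6220 (0 h) against 5738 and 5777 (12 h), with an adjusted p of 0.0618, and Vegfa 623 and 758 against 579.9 and 566, with an adjusted p of 0.117. Egln3 read 334 and 341 against 419 and 399, Ldha 20554 and 20609.7 against 21827 and 21169, Pdk1 3082 and 3718 against 3864 and 4160.0 and Ndrg1 276 and 243 against 281 and 289, with adjusted p of 0.0660, 0.0573, 0.0847 and 0.422. The serum and serum-free tables were normalised separately, so the difference between their effects was not tested. Hk2 and Pgk1 rose in both tables at 12 h. Bnip3 rose in one and fell in the other. The overexpression control described below, not labelled as in serum, also had called rises of Slc16a3 (1.33) and Hk2 (0.43) with 12 h of IAA. In those control cells Bnip3 and Pgk1 were not called, and Pdk1, Slc2a1 and Ldha were called lower.

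Of 33 other hypoxia-inducible genes in serum, 10 rose and 2 fell (7.73% and 9.25% of all genes), with Gys1 (515 ± 7.46 to 1572 ± 18.9) among the rises and Vldlr (136 ± 36.7 to 77.6 ± 2.45) among the falls. Of 11 regulators 2 rose, the hydroxylase Egln1 (650.0 ± 15.1 to 949 ± 11.2) and Cited2, a competitor of HIF for its coactivator (574 ± 40.4 to 754 ± 34.7). Of 19 other glycolysis genes, 4 rose and 2 fell, with Aldoc going from 194 ± 25.7 to 275 ± 11.1 and Tpi1 from 6378 ± 89.3 to 7742 ± 44.2. The summed stem cell markers were 67832 to 68030 at 0 h and 57280 to 58213 at 12 h. Over the same step the 3 listed mesoderm markers of 4 went from 65.1 to 91.9 up to 169 to 171, the 5 listed primitive endoderm markers of 7 from 277 to 291 up to 326 to 396, and the 3 neural markers from 383 to 396.5 down to 284 to 284.5. The part of these shifts in the rises was not tested.

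**Figure D2:**
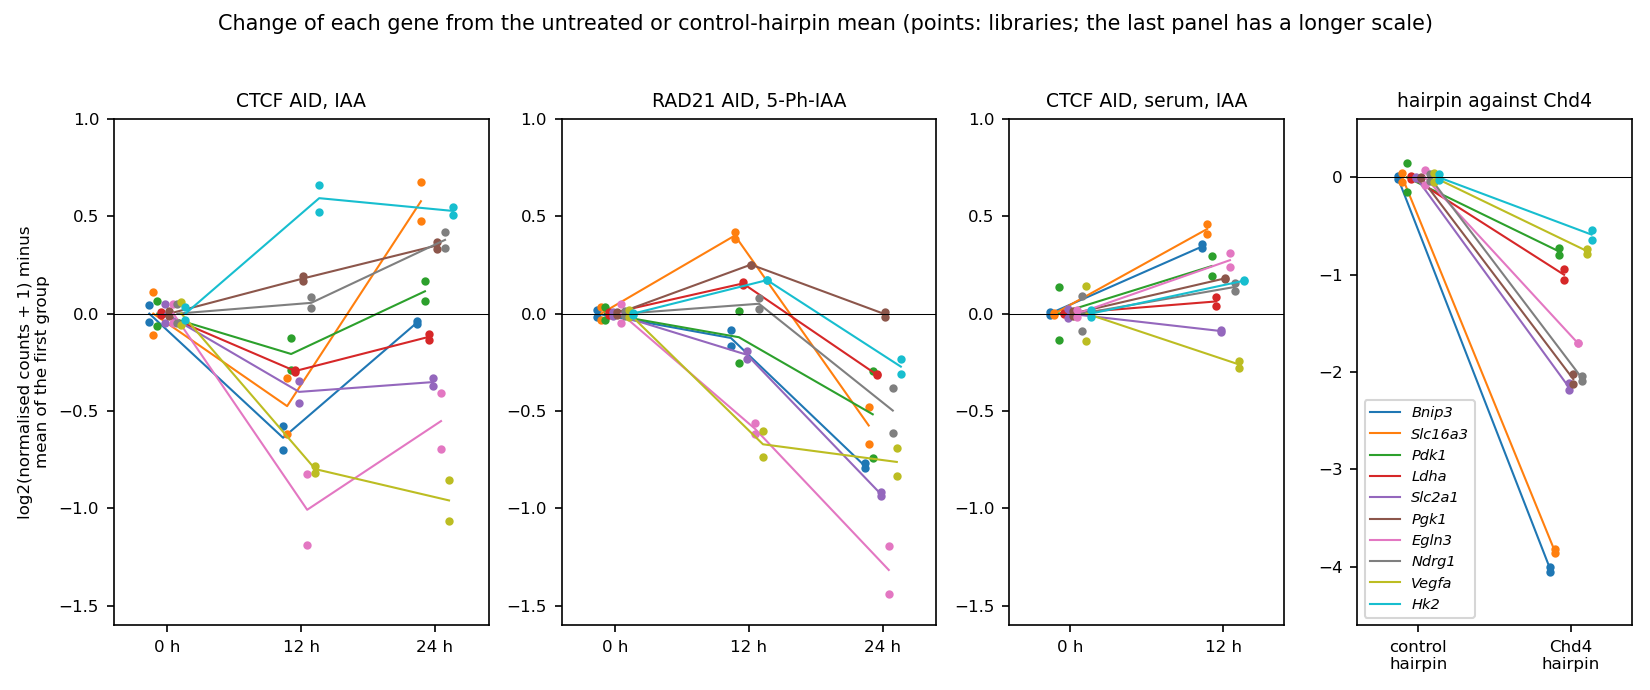
Difference of log2(normalised counts + 1) from the mean of the untreated or control-hairpin group (y axis) against hours of IAA or 5-Ph-IAA or hairpin (x axis) in 4 tables, with a point for each of the 2 libraries of a group and a line through the group means of each gene. The last panel has a longer y axis. Bnip3 and Slc16a3 dip at 12 h and return or rise by 24 h after CTCF loss, while after RAD21 loss Slc16a3 is above its start at 12 h and below it at 24 h.

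In the overexpression table, the control cells with 12 h of IAA were compared with those without, the only comparison of that table tested here. Limma called 25.3% of 13938 genes (12.8% higher, 12.5% lower), and of the 10 genes 2 rose and 3 fell. Slc16a3 read 150 and 125 without IAA and 333 and 359 with it (log2 difference 1.33, SE 0.13, limma adjusted p 4.28e-05), and Hk2 6552 and 6714 against 8950 and 8979 (0.43, limma adjusted p 0.000175). Pdk1 read 869.9 and 810 against 423 and 618 (-0.71, limma adjusted p 0.00451), Slc2a1 2987 and 2842.5 against 2390 and 2225 (-0.34) and Ldha 6409 and 6670 against 5761 and 5842 (-0.17, limma adjusted p 0.00138). The lactate exporter rose here while the lactate dehydrogenase fell. Bnip3, Pgk1, Egln3, Ndrg1 and Vegfa were not called, with adjusted p of 0.178, 0.316, 0.0708, 0.0986 and 0.442. With IAA the 5 listed primitive endoderm markers of 7 went from 48.2 to 68.9 up to 126 to 130, and the 2 listed neural markers of 3 from 112 to 126 down to 69.1 to 71.3. The 3 listed mesoderm markers of 4 went from 201.7 to 216.2 down to 160.5 to 166.5, with 1 called lower. The stem cell markers went from 124253 to 125527 down to 118458 to 119168. The part of these shifts was not tested.

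With groups taken from the treatment labels in place of the titles, the same fit called 1.79% of genes, and of the 10 Slc16a3 and Hk2 remained called, while Pdk1, Slc2a1 and Ldha had adjusted p of 0.354, 0.306 and 0.606. Neither group of this comparison holds a library with a disagreeing label, but those libraries enter the shared estimate of spread. The serum-free CTCF degradation table has the same genotype and time of IAA without the overexpression control. Hk2 rose and Slc2a1 and Ldha fell in both tables, whereas Vegfa read 896 and 879 without IAA and 935 and 966 with it in the control cells, with no call. Signs also differed for Slc16a3 (1.33 in the control cells against -0.48), Egln3 (0.51 against -1.01) and Bnip3 (0.22 against -0.64). The same held for Pgk1 (-0.04 against 0.18) and Ndrg1 (-0.235 against 0.06). These differences between the tables were not tested.

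Cells overexpressing CTCF are given as levels only. With wild-type CTCF and no IAA, all 10 genes had a higher mean than the control without IAA, and for 8 the libraries did not overlap, where 20.8% of all genes were higher and 20.5% lower without overlap. The median of the 10 differences was 0.37 on the log2 scale. Slc16a3 was highest above its control, at 275 and 235 against 150 and 125, and Bnip3 followed at 762 and 721 against 536 and 455. With mutated CTCF and no IAA, 5 genes were higher and 2 lower without overlap than the control (25.1% and 25.3% of all genes), the lower ones being Egln3 at 61.9 and 66.2 against 96.2 and 76.3 and Vegfa at 738 and 690.0 against 896 and 879. The Ctcf transcript read 9275 and 9481 with wild-type and 9589 and 9712 with mutated CTCF, against 4134 and 4332 in the control, so the transcript was above the control with both forms.

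Under IAA, each of the 10 genes was lower with mutated than with wild-type CTCF and none of the libraries overlapped, where 23.1% of all genes were lower and 24.8% higher without overlap. At least 2-fold lower were Bnip3, Slc16a3 and Egln3, against 1.28% of all genes. This is the contrast by which the genes were chosen, and it carries no test. The differences ran from -0.10 (Hk2) to -1.63 (Bnip3) with a median of -0.69. Bnip3 read 792 and 774 with wild-type CTCF and IAA, 261 and 245 with mutated CTCF and IAA and 522 and 636 in the control with IAA. Slc16a3 read 365 and 361, 135 and 120, and 333 and 359 in the same 3 groups. For these 2 genes the wild-type libraries were above or near the control and the mutated libraries far under it.

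Ldha read 7619 and 7704 with wild-type CTCF under IAA, 4978 and 4835 with mutated CTCF and 5761 and 5842 in the control. Slc2a1 read 3065 and 2908, 2165 and 2154, and 2390 and 2225, and Pgk1 9584 and 9574, 7248 and 7299.8, and 7832 and 8079. These 3 genes of sugar uptake and breakdown had the same order, with wild type above the control and mutated CTCF below it. Hk2 read 7931 and 8699, 7798 and 7679, and 8950 and 8979, so the control stood highest and the gap between the CTCF forms was the smallest of the 10.

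Egln3 read 154 and 127 with wild-type CTCF under IAA, 57.7 and 69.0 with mutated CTCF and 115 and 131 in the control. Vegfa read 1067 and 1213, 671 and 581, and 935 and 966, and Ndrg1 418 and 428, 239 and 271, and 328 and 342. Pdk1 read 539 and 578, 491 and 509.8, and 423 and 618, so its control libraries enclosed those of both CTCF forms. Pdk1 and Hk2 were the genes nearest to no difference between mutated and wild-type CTCF under IAA, at -0.16 and -0.10, and Slc2a1 and Pgk1 followed at -0.47 and -0.40.

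**Figure D3:**
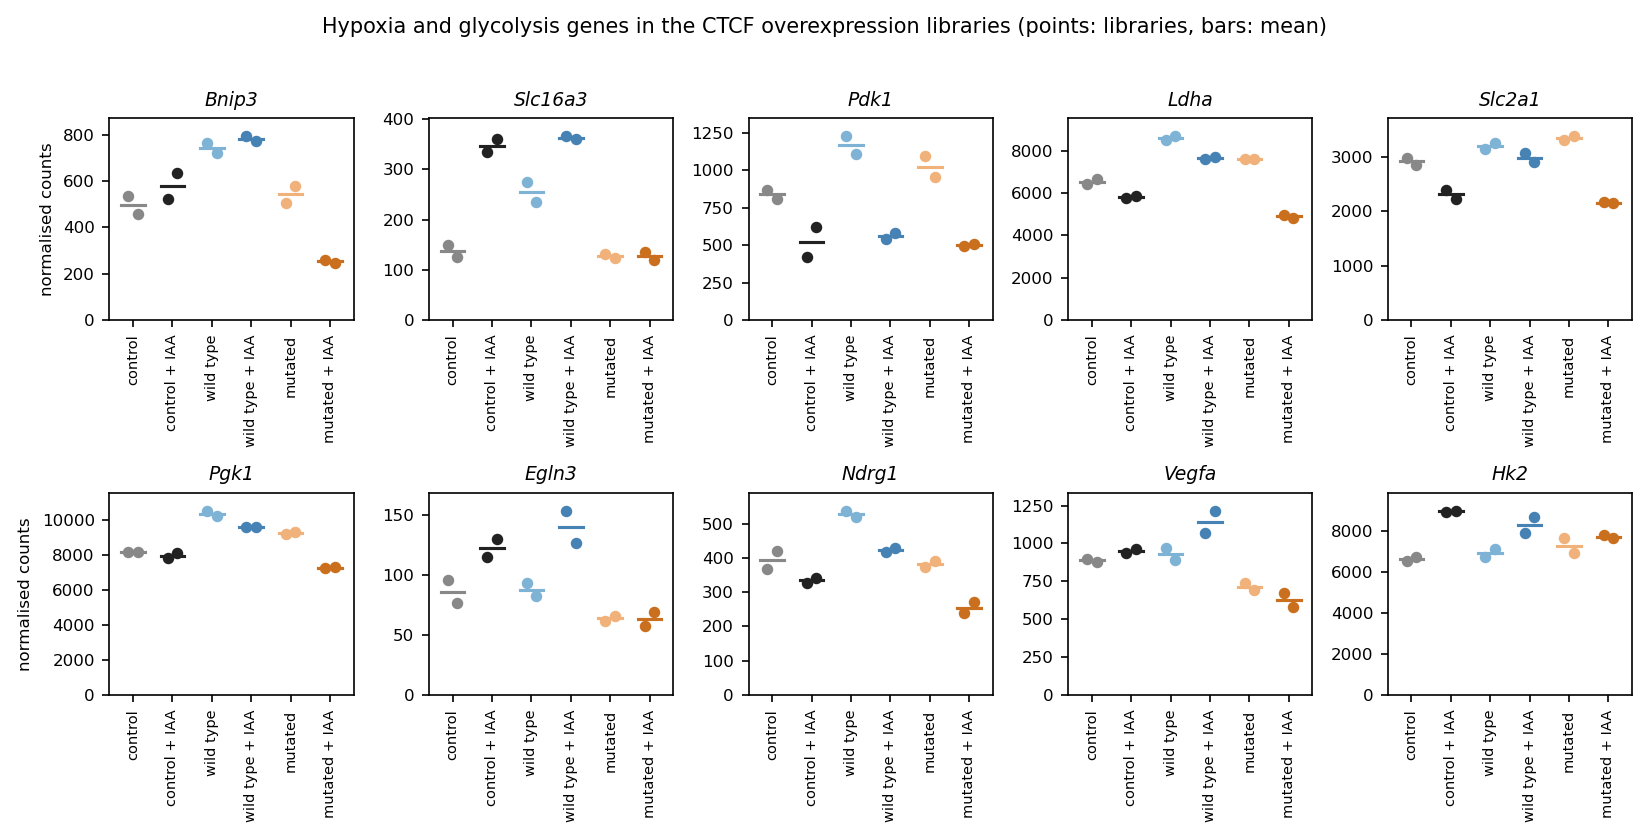
Normalised counts (y axis, from 0) of each of the 10 genes in the 6 groups of the overexpression table (x axis), with a point for each of the 2 libraries and a bar at the group mean. Mutated CTCF with IAA lies below wild-type CTCF with IAA in every panel, narrowly for Hk2 and Pdk1, and Bnip3 stands at 261 and 245 against 792 and 774.

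Without IAA the gap between the CTCF forms was smaller. There, 8 genes were lower with mutated than with wild-type CTCF without overlap (25.4% of all genes), 1 was higher (Slc2a1, 25.2%), and the median difference was -0.28. Slc16a3 read 131 and 123 with mutated CTCF against 275 and 235, and Bnip3 507 and 577 against 762 and 721. Against the control with IAA, which involves none of the 4 libraries whose labels disagree, mutated CTCF with IAA had a lower mean for all 10 genes, without overlap for 9 (25.5% of all genes lower, 25.2% higher), Pdk1 being the exception. Wild-type CTCF with IAA was higher than the same control without overlap for 7 genes (25.4%) and lower for 1, Hk2 (25.2%).

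The effect of IAA within each form is given side by side, since the contrasts share libraries. With mutated CTCF, 7 genes were lower with IAA than without and none was higher without overlap (30.0% and 28.9% of all genes), with Bnip3 going from 507 and 577 to 261 and 245 and Slc2a1 from 3301 and 3373 to 2165 and 2154. With wild-type CTCF, 5 were lower and 5 higher without overlap (30.6% and 30.7%). Bnip3 had 762 and 721 without IAA and 792 and 774 with it, and Slc2a1 3139 and 3259.9 without and 3065 and 2908 with it. In Slc16a3 the change with IAA was 1.33 in the control, 0.51 with wild-type and 0.00 with mutated CTCF on the log2 scale. Pdk1 alone was lower with IAA by about the same amount in both CTCF forms, at -1.06 and -1.03, and by 0.71 in the control.

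Counts of pathway genes outside the 10 under IAA stand beside the 23.1% of all genes lower and 24.8% higher without overlap. Of 19 other glycolysis genes, 13 were lower and 2 higher with mutated than with wild-type CTCF without overlap, with a median of -0.19. Aldoc stood at 154 ± 9.48 (SD, n = 2) against 288 ± 16.5, Pfkl at 868 ± 32.3 against 1406 ± 101 and Aldoa at 20132 ± 225 against 24409 ± 131. Of 30 other hypoxia-inducible genes, 14 were lower and 3 higher, with a median of -0.14, led by Bhlhe40 at 221 ± 8.61 against 422 ± 34.0 and Stc2 at 102 ± 0.557 against 195 ± 29.7. Of 11 regulators 4 were lower and 4 higher, with Egln1 at 266 ± 14.8 against 392 ± 3.54, and Hif1a read 4005 ± 150 against 3945 ± 15.0. Genes for pyruvate entry or oxidation had a median of 0.00. The summed primitive endoderm markers (5 of 7 listed, Sox17 and Sox7 not listed) were 73.0 to 81.6 with wild-type CTCF under IAA, 172 to 202 with mutated CTCF and 126 to 130 in the control, and the stem cell markers 122902 to 123407, 121134 to 121612 and 118458 to 119168. Only 2 of the 5 primitive endoderm markers averaged 10 or more. Of these 2, only Pdgfra differed between mutated and wild-type CTCF without overlap (151.2 ± 29.65 against 41.64 ± 12.35), and it made up most of that gap. The part of these shifts in the gap was not tested.

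**Figure D4:**
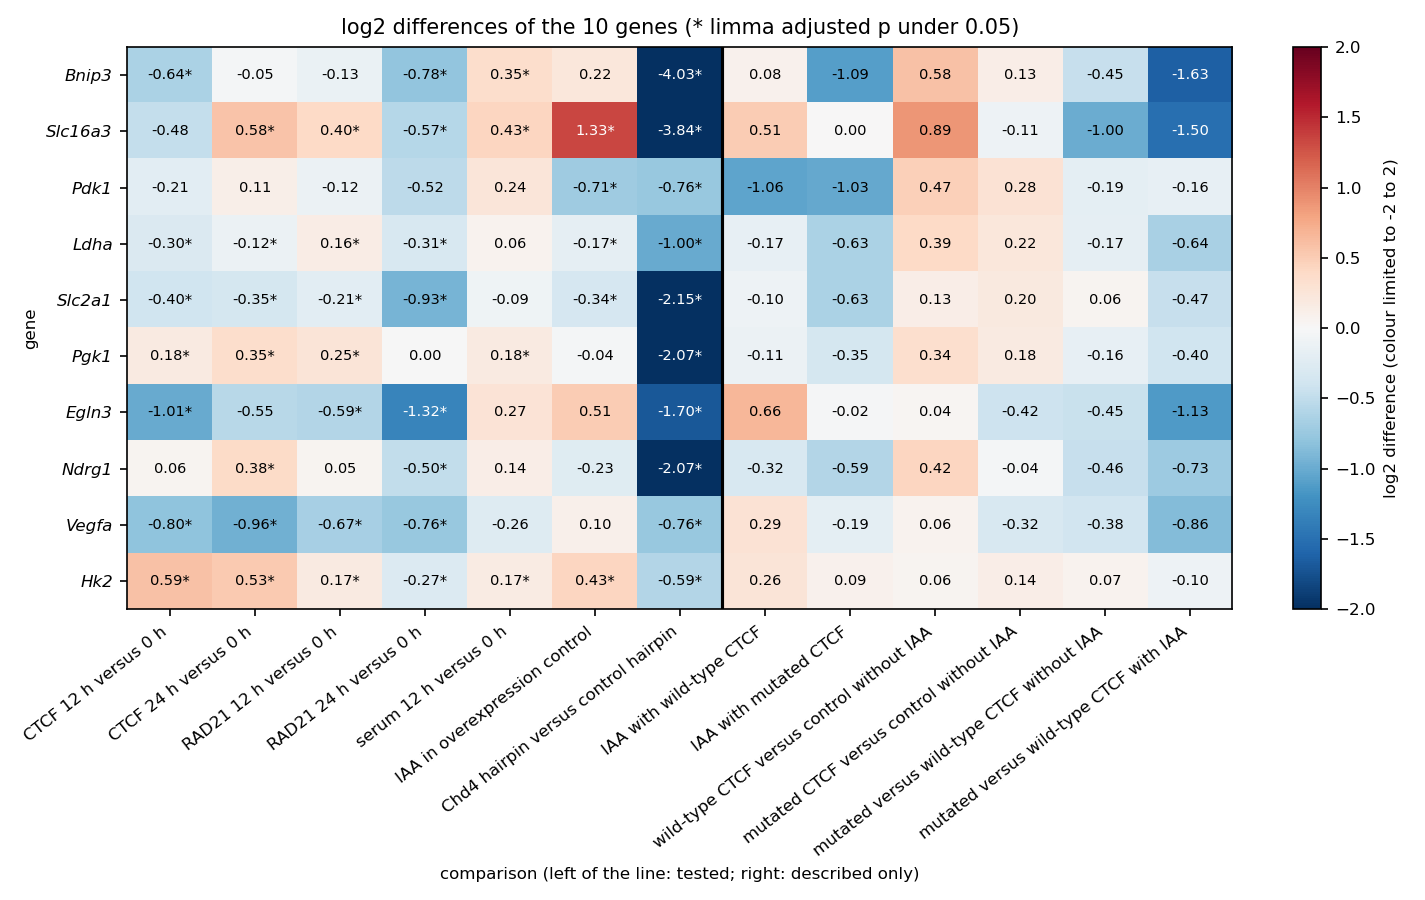
Log2 difference of each of the 10 genes (rows) in 13 comparisons (columns), coloured from blue (lower) to red (higher) with the colour limited to 2 on either side, and an asterisk where limma's adjusted p is under 0.05. Columns right of the line are described without a test. Vegfa is below 0 with an asterisk in the 4 leftmost columns, Hk2 is above 0 in both CTCF columns, and all 10 genes are below 0 with an asterisk in the Chd4 column.

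Across the 16 group means, each centred on its own table, the genes most like the members were sought. The mean profile of 9 members was used, since Egln3 had a mean under 100 in some tables, and 8960 genes were ranked by the same limit on their mean. The 5 nearest non-members were Bhlhe40 (r = 0.967), Agfg2 (0.961), Aldoa (0.959), Skil (0.944) and Aldoc (0.942). The 2 hairpin groups stand at 0.96 and -0.96 in that profile and weigh most in these r, and without them r over 14 groups was 0.872, 0.835, 0.842, 0.757 and 0.742. Ranked without the hairpin groups, Bhlhe40, Aldoa and Agfg2 stayed among the 5 nearest, Skil and Aldoc fell to ranks 16 and 19, and Trmo (0.852) and Pfkl (0.83) took their places. The groups share libraries in their table means, so each r describes these groups only and has no p. Within the group, each member against the mean of the others gave r from 0.988 for Bnip3 and 0.968 for Ndrg1 down to 0.475 for Hk2, and without the hairpin groups 0.953, 0.886 and 0.058.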

How the data were processed

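The 32 RNA sequencing libraries form 16 groups of 2. The deposited tables give a signal that is never negative, which the authors named normalised counts. The submitters' processing notes name Trim Galore, Bowtie2, STAR, RSEM and DESeq2 and the build mm10, without roles or versions, and the annotation is not given in the sources used here. No step turned the values into whole reads (coherence 0.293 to 0.527), so no test on reads was run and depth is known only through library totals. The CTCF degradation table ends inside an incomplete line, and genes sorting after it were not analysed there.

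Tables were normalised separately and tested separately. limma 3.58.1 (R 4.3.3, eBayes with trend) was run on log2(value + 1) for genes averaging 10 or more in a table, with all groups of the table in 1 fit. Calls needed a p under 0.05 after Benjamini-Hochberg adjustment across every gene in the fit. Differences are on that log2(value + 1) scale, which understates changes of low genes. An exact permutation test of 2 against 2 libraries cannot give a p under 0.333. Contrasts with overexpressed CTCF were described without a test. The members and all gene lists were chosen with earlier results of these data known. From each list, at most 3 called genes per tested comparison (5 in untested ones) were named, those with the largest difference among genes with non-overlapping libraries whose higher group averaged 100 or more. A gene that this rule also named is not reported here. Same-numbered libraries did not deviate together (correlations -0.063 to 0.102). Promoter windows were RefSeq's, and identifiers were matched to GENCODE M21 without version (at least 99.91%). The fit was tested on simulated data. Alternatives were pseudocounts of 0.5 and 5, no filter or a mean of 100, trimmed-mean and quantile scaling, fewer groups, a replicate block, each library left out and label-based groups.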

Additional observations from a re-analysis of the deposited data

Results flagged for a closer look

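Between RAD21 degradation for 12 h and for 24 h, 3 of the genes were called in opposite directions against 0 h. For these, limma's log2 differences of 24 h against 12 h were -0.98 for Slc16a3, -0.47 for Ldha and -0.44 for Hk2 (adjusted p 0.000475, 7.10e-05 and 0.000456). Both 24 h libraries lay below both 12 h libraries. Being picked by opposite calls against the same 0 h libraries fixed the sign of these differences, so they are no separate support. The share of all genes with opposite calls was not counted.

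In other pairs every treated library of one effect lay above the untreated ones and every treated library of the other below, and these differences were not tested. Lack of overlap is common between groups of 2: with wild-type CTCF and IAA, 30.7% of all genes were higher and 30.6% lower without overlap. The share of all genes with such opposite changes was not counted. The effect of 12 h of IAA in serum minus that in serum-free culture was 0.98 for Bnip3, 0.91 for Slc16a3, 0.45 for Pdk1, 0.36 for Ldha and 1.28 for Egln3. The effect in overexpression control cells minus that in the serum-free CTCF degradation table was 1.81 for Slc16a3, 1.52 for Egln3, 0.90 for Vegfa and -0.22 for Pgk1. The effect of IAA with mutated CTCF minus that with wild-type CTCF was -1.17 for Bnip3 and -0.48 for Vegfa, and minus that in the control it was -0.29 for Vegfa.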

How the results depend on the processing

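Of 56 calls of the 10 genes over 9 tested comparisons, 49 held under every alternative that left out no library and 39 under every alternative run, and none of these calls changed sign. With 1 library left out, the number of members called after 12 h of CTCF loss was 4 to 6 of 7, after 24 h 3 to 4 of 7, and after 12 h of RAD21 loss 3 of 7, where fewer of all genes were called as well. The lone library of a group was then assumed to vary like the others. For IAA in the overexpression control, groups taken from the treatment label left 2 of 5. The replicate block gave 8, 7, 0, 6, 8, 8, 6, 10 and 5 members called, against 7, 7, 0, 7, 8, 8, 4, 10 and 5 (CTCF 12 h, 24 h and 24 h against 12 h, the same for RAD21, then serum, Chd4 and the control with IAA), and a shared number did not pair the libraries. The median difference of all genes stayed within 0.031 of 0 under each scaling. The median difference between mutated and wild-type CTCF under IAA stayed between -0.70 and -0.653. Egln3 and Slc16a3 each stood under 100 normalised counts in some libraries.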

Other observations

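Some genes beside the 10 had values that stand apart. Gys1, a glycogen synthase known as a hypoxia-inducible gene, rose with 12 h of IAA in all 3 CTCF AID tables tested, from 980.0 ± 37.6 to 2720 ± 132 (SD, n = 2) in the overexpression control (log2 difference 1.47, SE 0.07, limma adjusted p 3.02e-07) and from 515 ± 7.46 to 1572 ± 18.9 in serum, and fell with the Chd4 hairpin. Slc2a3, the glucose transporter GLUT3, fell with IAA in the overexpression control from 32462 ± 303 to 20165 ± 268 (limma adjusted p 2.20e-09) and at 24 h of CTCF loss from 19649 ± 36.5 to 14109 ± 109, beside the falls of Slc2a1.

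Targets of the aryl hydrocarbon receptor, which shares the partner ARNT with HIF, rose after 12 h of CTCF loss for 5 of 5 listed genes, and in the overexpression control with IAA for 3 of 5 with 1 lower, against 9.39% and 12.8% of all genes higher. In serum with IAA 1 of 4 rose (7.73% of all genes), and 1 of 4 rose after 12 h in the RAD21 table (6.66%). With the Chd4 hairpin, for which no IAA is stated, 3 of 5 rose and 1 fell (33.5% and 33.8%). Cyp1a1 stood at 89.8 ± 16.5 at 0 h and 1015 ± 48.9 at 12 h in the CTCF table (limma adjusted p 7.60e-05) at 18.3 ± 0.505 and 24.9 ± 2.09 in the RAD21 table, and at 156 ± 17.0 with the control and 517 ± 16.1 with the Chd4 hairpin.

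Genes of the integrated stress response, a programme set off by amino acid shortage and other stresses, rose in the RAD21 table at 24 h for 5 of 8 and fell for none, against 6.54% of all genes higher. Of the 8, 4 rose and none fell after 12 h of CTCF loss (9.39% and 8.4% of all genes). With IAA in the overexpression control 4 rose and 1 fell (12.8% and 12.5%), while in serum 1 rose and 3 fell (7.73% and 9.25%). After 24 h of CTCF loss 2 rose and 1 fell (11.7% and 10.8%), with a median difference of -0.14. Between 12 h and 24 h of CTCF loss all 8 were lower without overlap, with 1 called. After 12 h of RAD21 loss 2 rose and 1 fell (6.66% and 6.35%), with a median of -0.02. With the Chd4 hairpin 3 rose and 3 fell (33.5% and 33.8%). In the RAD21 table Ddit3 stood at 347 ± 11.4 at 0 h and 695 ± 56.4 at 24 h, Nupr1 at 2104 ± 24.0 and 2866 ± 131, and Sesn2 at 2123 ± 15.0 and 2776 ± 120 (limma adjusted p 0.00129, 0.00224 and 0.00379).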
